A study of Mus musculus with 6 samples.

Results

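The genes described here are those that move high-energy phosphate from the mitochondrion to the myofibril, and the oxygen store of the same cells. They are the muscle, mitochondrial and brain-type creatine kinases (*Ckm*, *Ckmt2* and *Ckb*), the adenine nucleotide carriers *Slc25a4* and *Slc25a5*, the phosphate carrier *Slc25a3*, the voltage-dependent anion channels *Vdac1*, *Vdac2* and *Vdac3*, and myoglobin (*Mb*). The 10 genes were chosen by name for their known roles, with earlier results of these data known. Of these, 9 were measured among the 17145 genes of the count table, and *Mb* was not analysed here. All 9 had at least 10 unique molecular identifiers (UMIs) in total and were tested.

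Photo-isolation chemistry was used to read the transcriptomes of selected areas of heart sections, with 3 libraries from Atf3 high areas and 3 from Atf3 low areas. In this method mRNA is reverse transcribed within a fresh-frozen section from photo-caged primers, an area found by anti-Atf3 immunostaining is uncaged by ultraviolet light, and only cDNA from that area is amplified by the CEL-seq2 protocol. All 6 libraries came from FS6KD hearts, labelled as female and as cardiomyocytes. FS6KD mice carry a gene trap in both copies of *Ndufs6*, a complex I subunit, which lowers its expression mainly in the heart, on a mixed C57BL/6J and 129/Ola background. Both groups carry the knockdown, no wild-type library was part of the comparison, and the labels give no age. The Atf3 low areas lay within Atf3-positive clusters, so both groups were drawn from the neighbourhood of Atf3-expressing cells. The study calls the libraries biological replicates and names a pairwise t test for them. Nothing in the sources used here says which high and low areas came from one animal. An area holds more than cardiomyocytes, and fewer cells of a type cannot be told apart from less RNA per cell.

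In heart muscle, ATP made in the mitochondrial matrix leaves it through an adenine nucleotide carrier in exchange for ADP, while the phosphate carrier brings in the phosphate for the next round. Mitochondrial creatine kinase passes the phosphoryl group to creatine in the intermembrane space, phosphocreatine crosses the outer membrane through the anion channels, and cytosolic creatine kinase turns it back into ATP beside the myosin heads and the calcium pumps. Myoglobin holds oxygen in the cytosol of the same cells.

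The libraries held 81117 to 210588 UMIs and 6936 to 11971 detected genes, and the 9 genes together took 0.749% to 1.29% of the UMIs. Levels are given as CPM (UMI counts scaled to a common library size) after TMM adjustment, on which 1 UMI was worth 4.66 to 13.6 CPM, depending on the library. *Atf3* itself had 50, 7 and 25 UMIs in Atf3 high libraries 1, 2 and 3 and 35, 0 and 8 in Atf3 low libraries 1, 2 and 3, with a log2 fold change of 0.40 (SE 0.65, edgeR adjusted p = 0.996). The protein stain that chose the areas was therefore not matched by a called difference in the mRNA. *Ndufs6* had 2, 0 and 3 UMIs against 0, 0 and 0, too few to test. Atf3 high library 2, the smallest, held 16 UMIs of the Y-linked *Ddx3y* and *Eif2s3y* and 0 of *Xist*, which goes against its female label. The other libraries held 0 or 1 such Y-linked UMI and 3 to 26 *Xist* UMIs. Values without that library are given where they change a sign.

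None of the 9 genes passed an adjusted p of 0.05 between Atf3 high and Atf3 low areas in edgeR's quasi-likelihood test. Over all 7665 genes tested, 7 passed (0.0913%), so a count of 0 among 9 is also what the background rate would give. None of the 9 had an unadjusted p under 0.05 either, beside 5.79% of all genes, and none had groups that did not overlap, beside 11.0% of all genes. The fold change was below 0 for 8 of the 9 genes, beside 44.8% of all genes tested, for 5 of 9 beside 35.4% of all genes when libraries were scaled to their size alone, and for 0 of 9 beside 16.8% when they were scaled to their cardiomyocyte marker UMIs. These scalings shift all genes together, and over the whole table the median was 0.31 with library size and 0.87 with the marker scaling, on the log2 scale. The median log2 fold change of the 9 was −0.24, against 0.11 over all genes with TMM scaling. The difference of the members' median from that of all genes was −0.35, and it ranged from −0.51 to −0.26 over the other models, scalings and filters and from −0.48 to −0.16 with 1 library left out. Only 7 of the 9 were tested under edgeR's own filter, and no test was made of this difference.

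The levels of the genes differed by much more than the groups did. A UMI library reads 1 end of each transcript, so levels were compared between genes without a length scaling. *Slc25a4* was the most abundant at a mean of 5747 CPM over the 6 libraries and ranked 26 among the genes tested. It was followed by *Ckmt2* (2314 CPM), *Slc25a3* (1226 CPM), *Slc25a5* (674 CPM), *Vdac2* (420.5 CPM), *Ckm* (419.6 CPM), *Vdac1* (392 CPM), *Vdac3* (55.6 CPM) and *Ckb* (37.9 CPM). Each of the first 4 genes was higher than the next in 6 of 6 libraries, and so was *Vdac1* over *Vdac3* (two-sided exact sign-flip permutation p = 0.03125 each, the smallest that 6 libraries allow, 0.05 after adjustment over the 8 neighbouring pairs). *Vdac2*, *Ckm* and *Vdac1* could not be put in an order, as *Vdac2* was above *Ckm* in 3 of 6 libraries (exact permutation p = 0.656) and *Ckm* above *Vdac1* in 3 of 6 (p = 0.719). *Vdac3* was above *Ckb* in 4 of 6 libraries (exact permutation p = 0.812). The neighbouring pairs were set by mean level in these same 6 libraries, so the p-values are no separate support for the order.

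**Figure D1:**
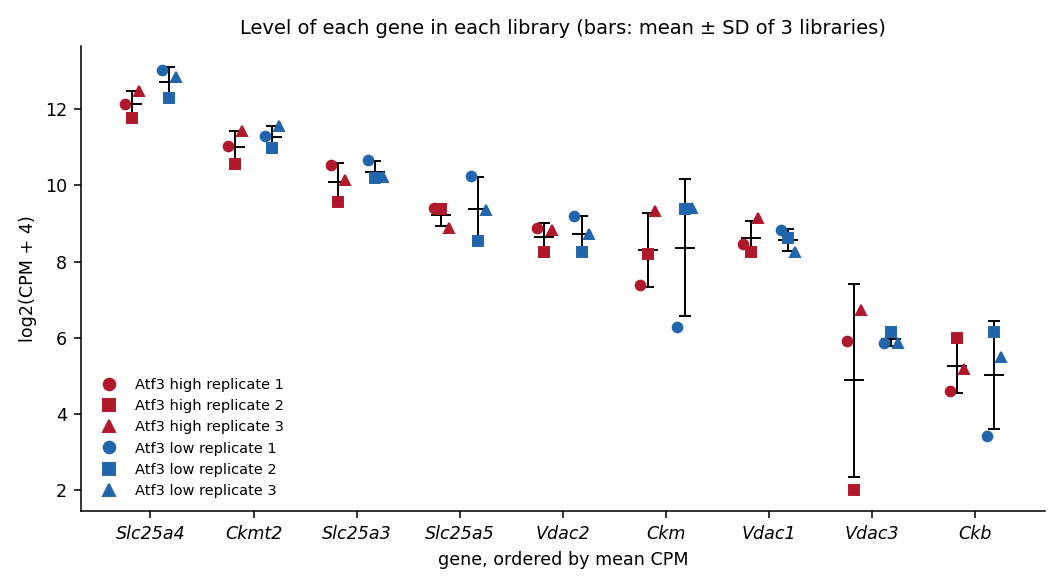
Level of each gene (y axis, logarithmic scale of CPM, as labelled) in each Atf3 high and Atf3 low library, with a point for each library and the group mean marked. The groups overlap for all 9 genes, and the points of *Ckm* spread from 74.1 to 681 CPM.

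Among the creatine kinases, *Ckm* encodes the cytosolic muscle enzyme that regenerates ATP at the myofibril (chr7:19404776-19422841, plus strand, GRCm38). Its level was 163, 290 and 643 CPM in Atf3 high libraries 1, 2 and 3, from 32, 24 and 138 UMIs. In Atf3 low libraries 1, 2 and 3 it was 74.1, 667 and 681 CPM, from 11, 80 and 50 UMIs. The groups overlapped, and in each group the lowest value was in the library numbered 1. The highest value was 3.95 times the lowest within the Atf3 high group and 9.19 times within the Atf3 low group, the widest relative spread of the abundant genes. Group means were 365 ± 249 and 474 ± 347 CPM (SD, n = 3 each), with a log2 fold change of −0.34 (SE 0.52, edgeR adjusted p = 0.996) and a 95% interval of −1.38 to 0.70. The estimate rested on single libraries: it was −1.09 without Atf3 high library 3, −0.91 without Atf3 low library 1, 0.01 without Atf3 high library 1 and 0.025 without Atf3 low library 3. An antisense gene that overlaps *Ckm*, A930016O22Rik, shares 213 bases with it and had 1 UMI in all. How reads in shared bases were assigned is not given in the sources used here, so the level of *Ckm* beside other genes is uncertain to that degree.

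*Ckmt2*, the sarcomeric mitochondrial creatine kinase of the intermembrane space (chr13:91853387-91876885, minus strand), was far steadier. It measured 2088, 1509 and 2739 CPM in the Atf3 high libraries and 2507, 2019 and 3023 CPM in the Atf3 low libraries. The ranges overlapped, and the lowest of all was in the smallest library, Atf3 high 2. Means were 2112 ± 616 and 2516 ± 502 CPM (SD, n = 3 each), with a log2 fold change of −0.25 (SE 0.33, edgeR adjusted p = 0.996). Its 95% interval ran from −0.92 to 0.43. The estimate was −0.07 without Atf3 high library 2, −0.12 without Atf3 low library 3, −0.43 without Atf3 low library 2 and −0.49 without Atf3 high library 3.

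*Ckb*, the brain-type cytosolic enzyme that most tissues outside muscle use (chr12:111669361-111672338, minus strand), was near the limit of counting. It had 4, 5 and 7 UMIs in the Atf3 high libraries and 1, 8 and 3 in the Atf3 low libraries. These correspond to 20.3, 60.3 and 32.6 CPM against 6.74, 66.7 and 40.9 CPM. Its log2 fold change of −0.06 had an SE of 0.95 (edgeR adjusted p = 0.996) and a 95% interval of −1.97 to 1.85, so a difference of several fold in either direction was not detectable at this depth. Without Atf3 low library 2 the estimate was 0.70, and without Atf3 high library 1 it was 0.25.

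Shares within a gene family need no scaling between libraries. *Ckb* made up 11.1%, 17.2% and 4.83% of the *Ckm* and *Ckb* UMIs in the Atf3 high libraries and 8.33%, 9.09% and 5.66% in the Atf3 low libraries. The Wilson 95% intervals were wide, as in Atf3 low library 1 (1 of 12 UMIs, 1.49% to 35.4%), and these intervals cover counting error only. Mean shares of 11.1% ± 6.21 and 7.69% ± 1.80 (SD, n = 3 each) overlapped (exact permutation p = 0.5), and the mean log2 ratio of *Ckb* to *Ckm* was higher in Atf3 high by 0.43 but by −0.037 without Atf3 high library 2. *Ckmt2* was 92.8%, 83.9% and 81.0% of the *Ckm* and *Ckmt2* UMIs in the Atf3 high libraries and 97.1%, 75.2% and 81.6% in the Atf3 low libraries. *Ckmt2* therefore had more UMIs than *Ckm* in every library, a comparison of counted UMIs and not of enzyme. It shares the limit given above for the count of *Ckm*. Its mean share was 85.9% ± 6.14 against 84.6% ± 11.3 (SD, n = 3 each, exact permutation p = 0.9), and the mean log2 ratio had the opposite sign, with a difference of −0.22 that was 0.84 without Atf3 low library 1.

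**Figure D2:**
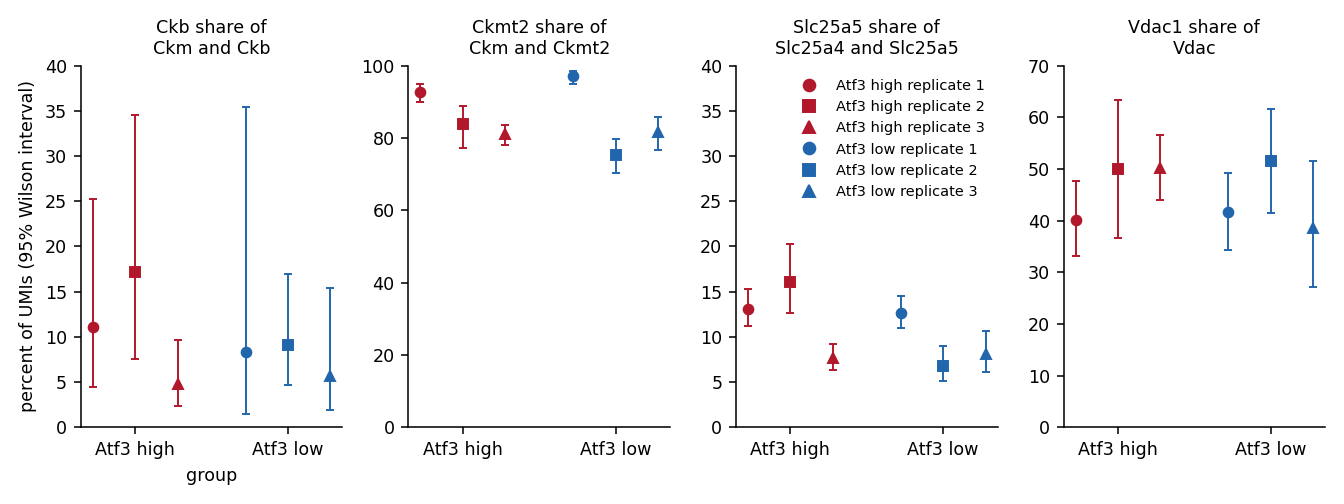
Share of UMIs (y axis, percent) held by 1 gene of each family in the Atf3 high and Atf3 low libraries, with a point per library and its Wilson 95% interval as a bar (counting error only). The groups overlap in all 4 panels, and the share of *Slc25a5* is highest in Atf3 high library 2 at 16.1%.

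*Slc25a4* encodes the adenine nucleotide carrier of heart and skeletal muscle, which exports ATP from the matrix (chr8:46206797-46211284, minus strand). It had the largest difference of the 9 genes in size. Its level was 4512, 3464 and 5711 CPM in the Atf3 high libraries, from 888, 287 and 1226 UMIs. In the Atf3 low libraries it was 8349, 5039 and 7409 CPM, from 1239, 604 and 544 UMIs. A single crossing kept the groups from separating, as Atf3 high library 3 was above Atf3 low library 2. Means were 4562 ± 1124 and 6932 ± 1706 CPM (SD, n = 3 each), and the log2 fold change was −0.60 (SE 0.31) with a 95% interval of −1.23 to 0.02. The edgeR adjusted p was 0.899, and by its unadjusted p it ranked 494 among the genes tested. Over the 16 alternatives planned, the fold change ranged from −0.83 to −0.38 and the unadjusted p from 0.0164 to 0.186, under 0.05 in 7 of them, while the adjusted p of edgeR, DESeq2 and limma was never under 0.566. Per 100 UMIs of 12 cardiomyocyte markers, *Slc25a4* had 17.7, 13.3 and 11.8 UMIs in the Atf3 high libraries and 17.6, 9.30 and 11.6 in the Atf3 low libraries, which overlapped (exact permutation p = 0.5).

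*Slc25a5*, the carrier of the same family that is made in most cell types (chrX:36795651-36798807, plus strand), was at 681, 664 and 470.5 CPM in the Atf3 high libraries. In the Atf3 low libraries it was at 1206, 367 and 654 CPM, so that the low group held both the highest and the lowest value. Means were 605 ± 117 and 742 ± 426 CPM (SD, n = 3 each), with a log2 fold change of −0.31 (SE 0.41, edgeR adjusted p = 0.996) and a 95% interval of −1.13 to 0.52. Without Atf3 low library 1 the estimate was 0.20. Of the UMIs of both carriers, *Slc25a5* held 13.1%, 16.1% and 7.61% in the Atf3 high libraries and 12.6%, 6.79% and 8.11% in the Atf3 low libraries. *Slc25a4* held most of these UMIs in every library. Mean *Slc25a5* shares of 12.3% ± 4.30 and 9.17% ± 3.06 (SD, n = 3 each) overlapped (exact permutation p = 0.4). All 4 family shares tested, with the anion channels included, had an adjusted p of 0.9, where 3 libraries against 3 cannot give an exact p below 0.1.

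*Slc25a3* encodes the phosphate carrier of the inner membrane (chr10:91116574-91124059, minus strand). It measured 1494, 748 and 1123 CPM in the Atf3 high libraries and 1637, 1168 and 1185 CPM in the Atf3 low libraries. The lowest value was in Atf3 high library 2, and the groups overlapped through Atf3 high library 1. Means were 1122 ± 373 and 1330 ± 266 CPM (SD, n = 3 each), with a log2 fold change of −0.24 (SE 0.36, edgeR adjusted p = 0.996) and a 95% interval of −0.97 to 0.48. The estimate was −0.04 without Atf3 high library 2 (the library that goes against its female label), −0.11 without Atf3 low library 1 and −0.50 without Atf3 high library 1.

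Atf3 binds DNA at TGACGTCA, and windows at the starts of these genes were searched for those letters and for the shorter TGACG, which TGACGTCA contains on both strands. Both strands of the 250 bases before each start in the RefSeq annotation of GRCm38.p6 were read, in 8 windows of 7 of the genes (none for *Vdac2* or *Vdac3*). TGACGTCA was in 0 of the 8 windows and in 1.55% of all 32851 windows. TGACG was in 2 of the 8, those of *Slc25a3* and *Vdac1*, and in 17.8% of all windows. The window of *Slc25a3* held 4 of them, beginning 121, 70, 56 and 48 bases before its RefSeq start, and 0.137% of all windows held as many. The RefSeq start is not the outermost start in every case. It lay 92 bases inside the GENCODE gene for *Slc25a3*, so that 1 of the 4 was before the GENCODE gene and 3 were inside it, and 222 bases inside for *Slc25a4*, whose window held none. For *Ckm* it lay 6318 bases inside, and for the *Vdac1* window without TGACG 737 bases inside. All 250 bases of both these windows were therefore inside the GENCODE gene. The RefSeq start was at the GENCODE start for *Ckb* and *Ckmt2*. The bases before both starts are shown from RefSeq for *Ckmt2*, as the most abundant gene whose starts coincide (chr13:91876886-91877135), and for *Slc25a3*, as the one with the most of these letters (chr10:91124060-91124217). Both read 5′ to 3′ on the minus strand of GRCm38, with TGACG or its reverse complement CGTCA in capitals.
Ckmt2: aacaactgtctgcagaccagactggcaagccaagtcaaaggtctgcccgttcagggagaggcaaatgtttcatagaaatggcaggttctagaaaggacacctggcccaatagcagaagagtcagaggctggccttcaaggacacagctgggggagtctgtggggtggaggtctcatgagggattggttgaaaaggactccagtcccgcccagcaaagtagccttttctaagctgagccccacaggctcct
Slc25a3: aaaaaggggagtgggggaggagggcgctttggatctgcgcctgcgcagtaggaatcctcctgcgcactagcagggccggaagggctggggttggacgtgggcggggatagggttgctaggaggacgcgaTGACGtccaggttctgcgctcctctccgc
The *Ckmt2* stretch had none of these letters and the *Slc25a3* stretch had 1 match. A match of letters is a description of the window and not a measured binding site, and the absence of one says nothing about the factor.

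The anion channels of the outer membrane, through which ATP, ADP and phosphocreatine pass, had edgeR fold changes near 0, though that of *Vdac3* depended on the model. *Vdac1* (chr11:52360860-52389397, plus strand) measured 351, 302 and 559 CPM in the Atf3 high libraries and 451, 392 and 299.6 CPM in the Atf3 low libraries. *Vdac2* (chr14:21825238-21845879, plus strand) measured 467, 302 and 452 CPM in the Atf3 high libraries and 579.5, 300.3 and 422 CPM in the Atf3 low libraries. Both ranges overlapped almost wholly, with the 2 genes at like levels in most libraries. The log2 fold change was 0.09 (SE 0.42, edgeR adjusted p = 0.996, 95% interval −0.76 to 0.93) for *Vdac1*, the only estimate above 0. For *Vdac2* it was −0.08 (SE 0.42, edgeR adjusted p = 0.996, 95% interval −0.92 to 0.75). The 2 estimates changed sign when single libraries were left out: *Vdac1* was −0.23 without Atf3 high library 3 and −0.07 without Atf3 low library 3, and *Vdac2* was 0.07 without Atf3 high library 2 and 0.15 without Atf3 low library 1. *Comtd1*, which overlaps *Vdac2* on the other strand, had 5 UMIs in all.

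*Vdac3* (chr8:22577075-22593813, minus strand), the least abundant channel, had 11, 0 and 22 UMIs in the Atf3 high libraries and 8, 8 and 4 in the Atf3 low libraries. The 0 in Atf3 high library 2 allows a level of up to 36.2 CPM at 3 UMIs. The other libraries were at 53.9 to 102 CPM. Its log2 fold change was −0.02 (SE 0.84, edgeR adjusted p = 0.999) with 95% limits of −1.70 and 1.67. It was −1.08 with limma-trend and −0.43 with limma-voom, 0.42 without Atf3 high library 2 (the one at 0) and −0.84 without Atf3 high library 3. *Vdac1* held 40.1%, 50.0% and 50.2% of the UMIs of the 3 channels in the Atf3 high libraries and 41.6%, 51.6% and 38.6% in the Atf3 low libraries. These shares overlapped (46.8% ± 5.77 against 43.9% ± 6.83, SD, n = 3 each, exact permutation p = 0.8). Near-identical copies of *Ckb*, *Slc25a5*, *Vdac2* and *Vdac3* exist in the genome, and how reads that fit several genes were assigned is not given in the sources used here, so counts of these 4 genes are uncertain to that degree. The same holds for *Ckm* through the bases it shares with its antisense gene.

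Of the cardiomyocyte markers that check the labelled cell type, 1 passed the test between the groups. All 12 cardiomyocyte markers had UMIs in every library, and all 12 had a fold change below 0, beside 44.8% of all genes tested. They ran from −1.81 for *Myh6*, the main myosin heavy chain of the adult mouse heart (edgeR adjusted p = 0.00512), to −0.06 for *Tnnc1* and *Ttn*. *Myh6* fell, though its edgeR adjusted p was 0.209 without Atf3 high library 1, 0.115 without Atf3 high library 2, 0.0508 without Atf3 low library 1, 0.273 without Atf3 low library 3 and 0.220 when scaled to the markers themselves. With libraries scaled to their size alone, 9 of the 12 were below 0, beside 35.4% of all genes. The summed level of the 12 was 25430, 26070 and 48430 CPM in the Atf3 high libraries and 47580, 54180 and 63810 CPM in the Atf3 low libraries, with Atf3 high library 3 above Atf3 low library 1. All 7 fibroblast markers had a fold change above 0 (4 of 7 without Atf3 high library 1), beside 4233 of all 7665 genes tested. The fibroblast sums were 1099 to 5188 CPM in Atf3 high and 531 to 2574 CPM in Atf3 low libraries. Summed endothelial markers were at 953 to 1230 and 803.5 to 1274 CPM and macrophage markers at 158 to 345.5 and 229 to 334 CPM. Mural cell markers were at 265.5 to 666 and 163 to 532 CPM, and 2 of 5 erythrocyte markers had a UMI. A fold change below 0 was found for 2 of 5 endothelial, 3 of 6 macrophage and 0 of 5 mural markers tested. The share of mitochondrially encoded UMIs was 16.9% to 21.2% in Atf3 high and 21.9% to 22.6% in Atf3 low libraries. The summed levels of the fibroblast, endothelial, macrophage and mural lists overlapped between groups. The part of these values in those of the energy transfer genes was not tested.

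The energy transfer genes were also set against the cardiomyocyte markers, a scale on which the median of all genes lay above 0 at a log2 fold change of 0.87 and that of the 9 genes at 0.55. Per 100 marker UMIs, the 9 genes together had 38.7, 28.1 and 24.4 UMIs in the Atf3 high libraries and 31.2, 18.6 and 21.6 in the Atf3 low libraries. The groups overlapped, at 30.4 ± 7.38 against 23.8 ± 6.60 (SD, n = 3 each, exact permutation p = 0.3). For *Ckmt2* the ratio was 8.21, 5.79 and 5.66 against 5.27, 3.73 and 4.74 (exact permutation p = 0.1, the smallest that 3 against 3 allows). *Ckmt2* and *Vdac1* were the 2 of the 9 genes whose ratio did not overlap between groups, both higher in Atf3 high, beside 16.9% of all genes tested that did not overlap in that direction on this scale. This ratio was added after the values had been seen, and *Myh6*, 1 of the markers, itself passed the test for a lower level. For *Ckm* it was 0.639, 1.11 and 1.33 against 0.156, 1.23 and 1.07, with overlap (exact permutation p = 0.6).

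**Figure D3:**
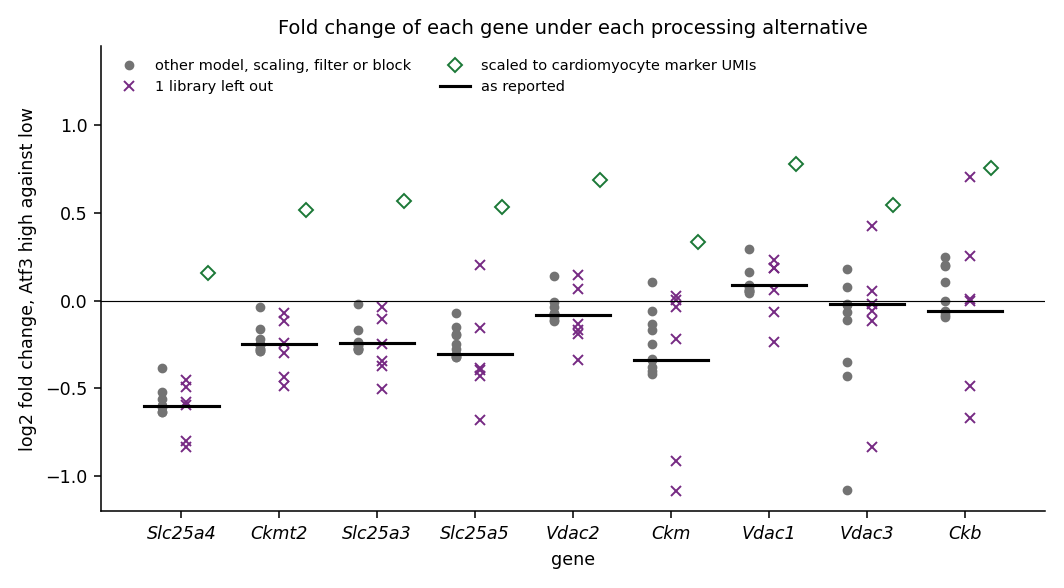
Log2 fold change of each gene in Atf3 high against Atf3 low areas (y axis, log2 scale) as reported (black line), under other models, scalings, filters or the replicate block (grey points), with 1 library left out (crosses) and scaled to cardiomyocyte marker UMIs (green diamonds). *Slc25a4* lies between −0.83 and −0.38 except for its diamond at 0.15, while *Ckm*, *Slc25a5*, *Ckb* and the 3 channels have crosses on both sides of 0.

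Other genes of energy transfer and of mitochondrial carriage were taken from a list of 32. Of these, 27 were measured, 5 were not analysed here (*Ckmt1*, *Slc25a31*, *Slc25a10*, *Nme2* and *Ngb*), 7 had fewer than 10 UMIs and 20 were tested. None of the 20 passed, beside 0.0913% of all genes, and 0 had an unadjusted p under 0.05 in edgeR, beside 5.79%. The fold change was below 0 for 9, beside 44.8% of all genes, and above 0 for 11. The median was 0.06 beside 0.11 for all genes. The smallest adjusted p was 0.964 (edgeR). *Ampd3*, an AMP deaminase, had 51, 4 and 20 UMIs in the Atf3 high libraries and 7, 7 and 8 in the Atf3 low libraries, with a log2 fold change of 1.01 (SE 0.63) that was 0.084 without Atf3 high library 1. *Slc25a20*, which carries acylcarnitines into the matrix for fatty acid oxidation, had 8, 8 and 20 UMIs against 13, 13 and 18, with a log2 fold change of −0.91 (SE 0.61) that was −0.39 without Atf3 low library 3 and −0.59 without Atf3 high library 1. *Slc25a12*, an aspartate and glutamate carrier, had 28, 11 and 28 UMIs against 40, 17 and 17, with a log2 fold change of −0.66 (SE 0.50). *Nme1*, a nucleoside diphosphate kinase, had 15, 5 and 11 UMIs against 4, 4 and 3, with a log2 fold change of 0.91 (SE 0.82). It was the only one of the 20 whose CPM did not overlap between groups. Of all 7665 genes tested, 11.0% did not overlap in either direction, and 542 were higher in Atf3 high without overlap. *Ppa2*, the mitochondrial inorganic pyrophosphatase, had 5, 8 and 21 UMIs against 7, 7 and 2, with a log2 fold change of 0.64 (SE 0.77) that was 0.31 with limma-voom or without Atf3 high library 3 and 1.08 without Atf3 high library 1.

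The genes whose levels ran most alike with *Ckm* and *Slc25a4* over the 6 libraries were found by the Pearson correlation of log2 CPM among genes with at least 100 UMIs, as a description of 6 libraries that share depth and scaling. For *Ckm* they were *Txnip*, a thioredoxin-binding protein (r = 0.987), the nuclear long noncoding RNA *Neat1* (r = 0.975) and *Hadha*, a subunit of the trifunctional protein of fatty acid oxidation (r = 0.968). *Txnip* was at 229, 253 and 484 CPM in the Atf3 high libraries and 148, 450.5 and 463 CPM in the Atf3 low libraries, so that it too was lowest in the library numbered 1 of each group. For *Slc25a4* they were *Cox6c*, a subunit of complex IV (r = 0.998), *Arf1*, a small GTPase (r = 0.987), and *Uqcrfs1*, the Rieske iron-sulfur subunit of complex III (r = 0.979). *Cox6c* was at 1895, 1557 and 2208 CPM against 2743, 2019 and 2574 CPM. As with *Slc25a4*, Atf3 low library 1 was highest and Atf3 high library 2 lowest. For *Ckb* they were *Ccnd2*, a D-type cyclin (r = 0.988), *Usp28*, a deubiquitinase (r = 0.980), and *Lamb2*, a laminin chain (r = 0.979), where *Ckb* itself rested on 1 to 8 UMIs a library.

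**Figure D4:**
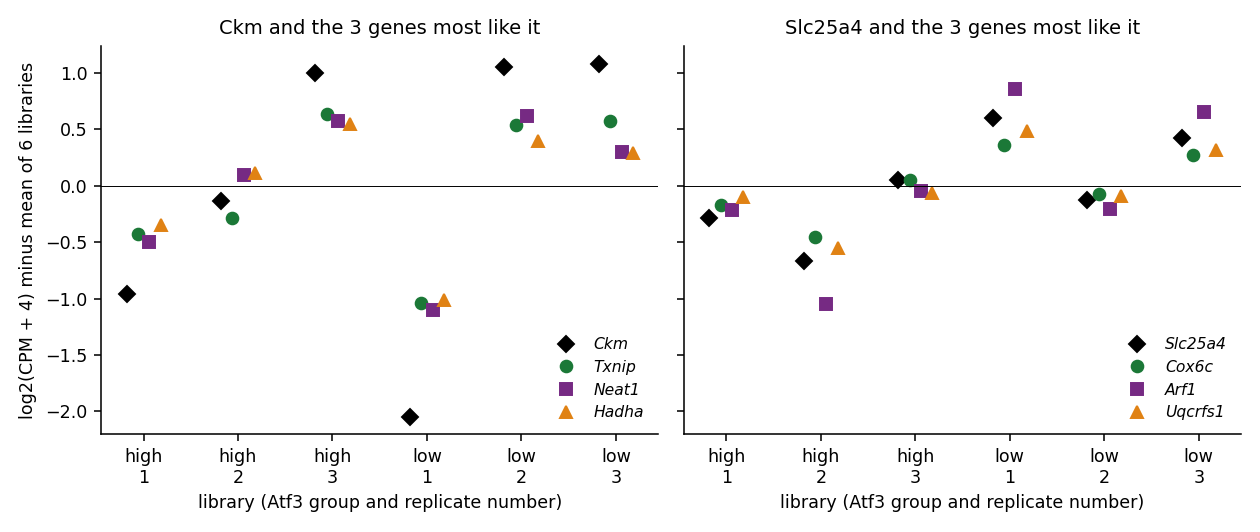
Level of *Ckm* (left) and *Slc25a4* (right) with the 3 genes most like each, as log2(CPM + 4) minus the mean over the 6 libraries (y axis), in each Atf3 high and Atf3 low library (x axis). The *Ckm* set is low in the libraries numbered 1, and the *Slc25a4* set is lowest in Atf3 high library 2 and highest in Atf3 low library 1.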

How the data were processed

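Areas of FS6KD heart sections were isolated by photo-isolation chemistry in 3 Atf3 high and 3 Atf3 low libraries, grouped by their labels. The authors sequenced CEL-seq2 libraries on a NovaSeq6000 and aligned them by HISAT2 (version 2.1.0) to GRCm38. The submitters' processing notes also name UMI-tools (version 1.0.0) and featureCounts (version 1.6.4). What the authors deposited is a table of raw UMI counts, 1 column a library. Amplification copies are thereby counted once, and low genes have few counts.

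After genes under 10 UMIs in total were removed, 7665 remained. They were compared between groups by the quasi-likelihood F test of edgeR 4.0.16, run under R 4.3.3 with TMM factors, Benjamini-Hochberg adjustment over all of them and no covariate. Shares and ratios were tested by two-sided exact permutation in SciPy (version 1.17.1). The common biological coefficient of variation was 53.6%. DESeq2 (version 1.42.0), limma (version 3.58.1), other scalings and filters, a replicate block and leaving out each library were the alternatives. The edgeR steps were tested on simulated data. Copies were sought by BLAST+ (version 2.17.0) at 95% identity over 200 bases. Positions came from GENCODE, where 17133 of the 17145 identifiers matched.

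The members and lists were chosen with earlier results of these data known. Named genes were the members, the 5 listed pathway genes of smallest p, the 3 genes most alike to *Ckm*, *Ckb* and *Slc25a4*, *Atf3*, *Ndufs6* and copies. *Myh6*, *Tnnc1*, *Ttn*, the sex-linked genes and the overlapping genes were named after their values were seen.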

Additional observations from a re-analysis of the deposited data

How the results depend on the processing

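No member and no listed pathway gene was called under any of the 17 alternatives. The median of the 9 genes was 0.55 when libraries were scaled to cardiomyocyte marker UMIs (an alternative chosen after seeing the data), where that of all genes was 0.87. Elsewhere it was −0.02 with library size scaling, and with 1 library left out from −0.34 to −0.07, the last without Atf3 high library 2. The marker scaling gave *Ckm* 0.33, *Ckb* 0.75, *Ckmt2* 0.52, *Slc25a4* 0.15, *Slc25a5* 0.53, *Slc25a3* 0.57, *Vdac2* 0.68, *Vdac3* 0.55 and *Slc25a12* 0.14. Signs also changed with limma-voom (*Ckm* 0.11, *Ckb* 0.20), limma-trend (*Ckb* 0.25), library size scaling (*Ckb* 0.11, *Vdac2* 0.14, *Vdac3* 0.18), no filter (*Vdac3* 0.077) and the replicate block (*Ckb* 0.19). Of the member estimates with a library left out, 42 kept their sign and 12 changed it, with ranges of −1.09 to 0.025 for *Ckm*, −0.67 to 0.70 for *Ckb*, −0.68 to 0.20 for *Slc25a5*, −0.23 to 0.23 for *Vdac1*, −0.34 to 0.15 for *Vdac2*, −0.84 to 0.42 for *Vdac3*, −0.037 to 0.98 for the log2 ratio of *Ckb* to *Ckm* and −0.90 to 0.84 for that of *Ckmt2* to *Ckm*. All genes called were 12 with DESeq2, 3 with limma-trend, 24 with the replicate block, 16 with the marker scaling and 0 to 11 with 1 library left out, with 1 each without Atf3 high library 1, Atf3 high library 2 and Atf3 low library 3, 11 without Atf3 high library 3, and 0 without Atf3 low library 1 (477 at an unadjusted p under 0.05 in edgeR). The cause was not tested.

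Replicate numbers were not taken as pairs in the main fit. With each gene's group mean subtracted from log2 CPM, same-numbered libraries correlated at 0.109, 0.0146 and 0.0968. These are correlations of departures from the group mean, not of whole libraries. Each library correlated best with its own number, though for number 2 the margin was small. There 0.0146 stood beside 0.0112 for Atf3 high library 2 with Atf3 low library 1 and 0.0108 for Atf3 high library 3 with Atf3 low library 2. Of those numbered 2, the Atf3 high library held 16 Y-linked and 0 *Xist* UMIs and the Atf3 low library 0 and 13. These counts go against 1 animal as the source of both. Whether the numbers mark pairs of another kind, or pairs among the other libraries, was not tested. With the block 0 members were called and *Slc25a4* had an adjusted p of 0.834 in edgeR. Summing members with near-identical sequences changed *Ckm* alone, to −0.33, through 1 UMI of its antisense gene A930016O22Rik. No UMIs of the other copies were analysed here. With 3 libraries a group and intervals of up to several log2 units, depth limits *Ckb* and *Vdac3* most.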
